A study of Homo sapiens with 12 samples.

Results

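B cell receptor signaling genes were followed in tumors grown from JEKO-1, a human mantle cell lymphoma line, in CB17-SCID mice treated with acadesine, rituximab or both. The genes were given as a list of 40 symbols, which name 39 genes because CD45 is another name of PTPRC, and all 39 had a probe set of their own on the array, of 18239 genes measured. They encode the receptor's signaling chains and a co-receptor, the kinases next to them, the adaptors, the enzymes and channels of the calcium response, the exchange factors for small GTPases, the lipid kinases and phosphatases, and the protein kinase C and NF-κB branch. Together they had 117 probe sets, and each gene was read from its brightest one.

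The study held 12 tumors, 3 in each of 4 groups, with the RNA of each on 1 Affymetrix HT HG-U219 array. The acadesine group received 400 mg/kg of acadesine, daily by the labels and on most days of the week by the methods. The rituximab group received 10 mg/kg of rituximab weekly, the combination group received both drugs, and the control group received vehicle, all for 18 days. All mice were severe combined immunodeficient hosts, which lack mature T and B lymphocytes and keep natural killer cells, macrophages and complement. The tumors came from 1 cell line under the skin, and the study chose them as representative of larger cohorts.

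Antigen binding to the B cell receptor leads Src family kinases to phosphorylate the tails of CD79A and CD79B, on which SYK docks and becomes active. SYK and BTK, held together by the adaptor BLNK, switch on phospholipase C gamma 2, whose products release calcium and activate protein kinase C beta, and from there the BCL10 and MALT1 complex leads to NF-κB. Mantle cell lymphoma cells commonly depend on this pathway, rituximab binds CD20 on the surface of B cells, and acadesine is a nucleoside whose phosphorylated form in cells activates the kinase AMPK.

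Values are RMA expression on a log2 scale, so a difference of 1 is a doubling. They ran from 3.09 to 14.3, and levels of different genes cannot be ranked against each other because probes differ in brightness. The B cell genes MS4A1, which encodes CD20, POU2AF1 and TCL1A read between 11.86 and 13.78 in all 12 tumors, and CCND1, the cyclin D1 gene that marks mantle cell lymphoma, read between 11.98 and 12.39. Not every marker was flat between combination and control. Of 11 B cell genes 1 passed, CD40, a costimulatory receptor, at 9.83, 9.56 and 9.73 in combination tumors, against 10.26, 10.24 and 10.48 in control tumors (change -0.62, limma adjusted p = 0.00222), and 3 more did not overlap, MS4A1 and CD37 below and EBF1 above. SOX11, a mantle cell lymphoma gene, read 9.92, 9.89 and 9.51 in combination tumors, against 8.46, 9.44 and 8.56 in control tumors (limma adjusted p = 0.0503). The array was designed for human genes and the hosts were mice. Dim readings of host cell genes therefore do not show that host cells were few. Of 11 T and NK cell genes 6 were below 5 on all arrays and 0 passed, though CD3G read 5.14, 4.54 and 5.36 in combination tumors, against 4.36, 4.32 and 4.38 in control tumors. GZMB, a dim gene, also lay wholly above control. The changes of the 11 went both ways, from -0.35 for CD3D to 0.66 for CD3G. Over all genes, 9.42% lay wholly above and 9.08% wholly below between combination and control. Of 8 fibroblast genes 5 were below 5 on all arrays, and COL3A1, a collagen, passed at 4.44, 4.53 and 4.86 in combination tumors, against 3.76, 4.06 and 3.85 in control tumors (limma adjusted p = 0.00483). Of 22 skeletal muscle genes, 10 were below 5 on all arrays, but 4 tumors carried the most muscle transcripts by ACTA1, the muscle actin. It read 8.66 in acadesine tumor 2, 8.71 in rituximab tumor 2, and 12.76 and 10.58 in combination tumors 2 and 3. The control tumors read at most 6.01. Acadesine tumor 3, at 6.71, was also above them but was not counted among the 4, and no fixed cutoff was set. The mean of the 22 muscle genes ranged from 4.46 to 4.91 in acadesine, 4.35 to 4.88 in rituximab, 4.29 to 6.12 in combination and 4.38 to 4.42 in control tumors. Between combination and control 2 of the 22 passed, both higher, MYL11 (change 2.69, limma adjusted p = 0.0302) and TNNI2 (1.99, 0.0487). In MYL11, CA3 and TCAP every combination tumor was above every control tumor. The part of these markers in the results was not tested, and values without those 4 tumors, which leave 1 combination tumor, are given beside each called gene.

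5 genes passed the test in at least 1 comparison, and the promoters of these 5 are shown because the results turn on them. Each is the RefSeq GRCh38.p14 sequence of 300 bases on the gene's own strand. It runs from 250 bases before a start listed for the gene to 50 after it. A single listed start was taken per gene, and whether it is the gene's main start was not checked. BANK1 lies at chr4:101790480-101790779 on the plus strand, LAX1 at chr1:203764933-203765232 on the plus strand, VAV3 at chr1:107688450-107688749 on the minus strand, PRKCB at chr16:23835733-23836032 on the plus strand and FYN at chr6:111873403-111873702 on the minus strand. Capitals mark matches, on either strand, to the octamer ATGCAAAT read by OCT factors, the EBF1 core CCCNNGGG, the PU box GAGGAA and the TATA box TATAAA.
BANK1: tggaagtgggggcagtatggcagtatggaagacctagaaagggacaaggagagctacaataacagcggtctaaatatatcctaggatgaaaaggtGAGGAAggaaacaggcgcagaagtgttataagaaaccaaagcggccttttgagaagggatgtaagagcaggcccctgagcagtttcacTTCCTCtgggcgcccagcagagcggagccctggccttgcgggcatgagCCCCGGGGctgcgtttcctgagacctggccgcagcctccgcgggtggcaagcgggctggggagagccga
LAX1: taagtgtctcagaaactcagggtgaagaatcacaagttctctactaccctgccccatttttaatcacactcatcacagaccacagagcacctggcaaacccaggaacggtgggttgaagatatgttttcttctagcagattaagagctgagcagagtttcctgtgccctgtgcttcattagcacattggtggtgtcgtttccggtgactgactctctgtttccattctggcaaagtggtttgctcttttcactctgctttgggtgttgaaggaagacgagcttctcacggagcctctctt
VAV3: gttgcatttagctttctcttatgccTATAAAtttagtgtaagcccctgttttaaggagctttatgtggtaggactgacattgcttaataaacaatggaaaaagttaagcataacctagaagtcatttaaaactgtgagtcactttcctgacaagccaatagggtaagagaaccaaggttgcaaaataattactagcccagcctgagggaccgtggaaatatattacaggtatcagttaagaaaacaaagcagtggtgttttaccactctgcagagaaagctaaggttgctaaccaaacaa
PRKCB: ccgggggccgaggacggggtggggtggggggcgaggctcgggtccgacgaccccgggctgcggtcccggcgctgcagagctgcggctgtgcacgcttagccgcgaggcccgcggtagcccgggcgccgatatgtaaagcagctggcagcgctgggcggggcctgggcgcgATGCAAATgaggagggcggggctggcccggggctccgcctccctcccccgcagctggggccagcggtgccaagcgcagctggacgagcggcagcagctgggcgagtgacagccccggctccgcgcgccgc
FYN: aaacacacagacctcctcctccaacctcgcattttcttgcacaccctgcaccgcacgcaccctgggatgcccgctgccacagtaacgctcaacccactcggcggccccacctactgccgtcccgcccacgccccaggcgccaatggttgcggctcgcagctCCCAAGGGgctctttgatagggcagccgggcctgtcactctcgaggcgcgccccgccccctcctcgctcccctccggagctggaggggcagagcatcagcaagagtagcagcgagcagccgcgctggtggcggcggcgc

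The BANK1 window held the EBF1 core at position -19 and the PU box at -155 and -67, counted from the listed start. PRKCB held the octamer at -80, FYN the EBF1 core at -89, VAV3 the TATA box letters at -225, and LAX1 none of the 4. Of the 39 genes, 31 had a promoter in the table. The octamer was in 2 of the 31 against 1.77% of all 35116 promoters of this length, the EBF1 core in 11 against 19.1%, the PU box in 14 against 27.9% and the TATA box in 2 against 11.5%. These are matches of letters in a window and do not show a bound site.

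The combination was set against control to ask how the 2 drugs together changed the pathway's transcripts. FYN was higher, BANK1 and LAX1 were lower, and the other 36 genes did not pass an adjusted p of 0.05 in limma. Against a share of 2.47% of all 18239 genes in either direction, 3 of the 39, or 7.69%, passed. That was 1 of 39 higher, or 2.56%, against 1.14% of all genes, and 2 of 39 lower, or 5.13%, against 1.33%. The fitted change was below 0 for 27 of the 39 genes, or 69.2%, against 49.6% of all genes, and the median change was -0.12 on the log2 scale against 0.00 over all genes. In 13 genes, or 33.3%, all 3 combination tumors lay below all 3 control tumors, against 9.08% of all genes. In 3 genes, or 7.69%, they lay above, against 9.42% of all genes. With 3 tumors a group, 16 of the 39, or 41.0%, had an unadjusted p under 0.05, against 13.9% of all genes, 12 of the 16 lower and 4 higher. Shares over all genes include many dim genes, which pass less often. Only 9481 of the 18239 genes had a mean above 5, but 38 of the 39 did. Of those 9481, 215 passed higher and 287 lower, and 1997 had an unadjusted p under 0.05. In that fit 3 of the 38 passed, BANK1, LAX1 and PRKCB, all lower. Their share was closer to that of the 9481 genes than in the fit of all genes. Leaving out 1 tumor moved the count below 0 to 23 without control tumor 1 (median -0.08) or combination tumor 2 (median -0.10), and to 28 without control tumor 2 (median -0.20). Without the 4 tumors with muscle transcripts 25 of the 39 changes were below 0, with a median of -0.04 and 0 genes called, and over all genes the calls fell to 29 higher and 10 lower there. In bulk tumor RNA, fewer lymphoma cells and less transcript per cell cannot be told apart.

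**Figure D1:**
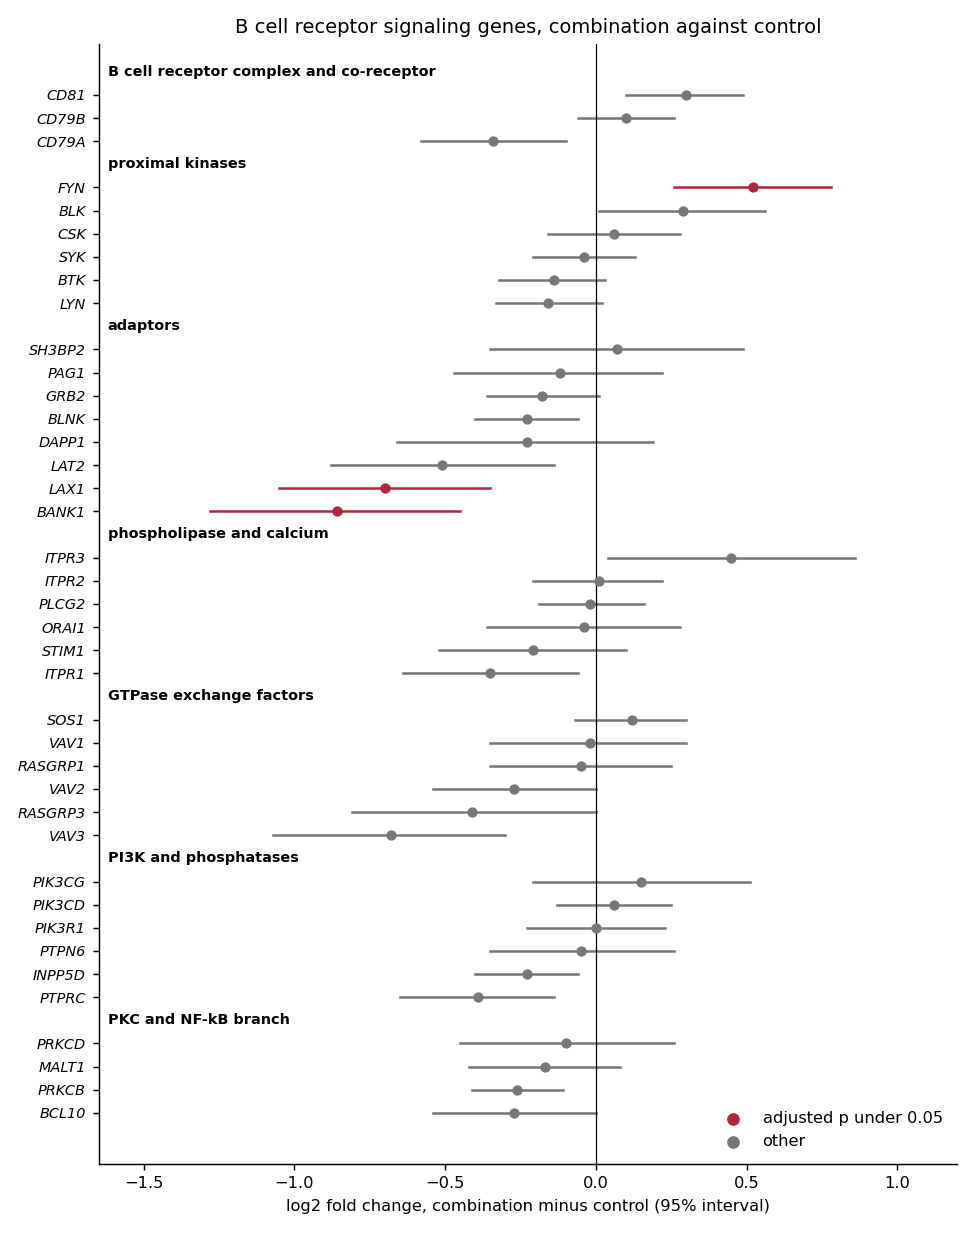
Log2 fold change of each of the 39 genes, combination minus control, with its 95% interval, grouped by role (3 tumors a group). Red marks the 3 genes past an adjusted p of 0.05, BANK1 and LAX1 to the left of 0 and FYN to the right, while most intervals reach both sides of 0.

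The adaptors held both genes that fell. BANK1, a scaffold that links the receptor's kinases to calcium release, read 8.21, 8.02 and 8.75 in combination tumors, against 9.33, 8.80 and 9.44 in control tumors. Every combination tumor was below every control tumor, though combination tumor 3 and control tumor 2 nearly touched. It read 9.05, 8.62 and 9.03 in acadesine tumors and 8.76, 9.51 and 8.90 in rituximab tumors, which overlapped the control tumors. The combination's log2 fold change was -0.86 ± 0.20 (SE, n = 3 each, limma adjusted p = 0.0226), which put BANK1 at 55.1% of its control level. All 3 of its probe sets passed when every probe set was tested, with changes between -1.23 and -0.86. The call was lost without control tumor 1 (limma adjusted p = 0.105), control tumor 3 (0.146), combination tumor 1 (0.094) or combination tumor 2 (0.158), and without the 4 tumors with muscle transcripts the change of BANK1 was -0.98 (limma adjusted p = 0.0629).

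LAX1, a membrane adaptor that damps antigen receptor signaling, read 7.71, 7.41 and 7.69 in combination tumors, against 8.15, 8.22 and 8.55 in control tumors. Its log2 fold change was -0.70 ± 0.17 (SE, n = 3 each, limma adjusted p = 0.0268), or 61.5% of the control level. LAX1 was also low in the acadesine tumors, at 7.97, 7.43 and 7.70, all below the control tumors, where its change of -0.60 ± 0.17 did not pass (limma adjusted p = 0.564). The rituximab tumors, at 7.72, 8.32 and 8.05, overlapped the control tumors. The second, dimmer probe set of LAX1 changed by -0.23 ± 0.19 in the combination and by 0.12 ± 0.19 in acadesine tumors, the opposite sign there, and passed in neither. The call was lost without control tumor 3 (limma adjusted p = 0.171), combination tumor 1 (0.0533) or combination tumor 2 (0.163), and without the 4 tumors with muscle transcripts the change of LAX1 was -0.59 (limma adjusted p = 0.367).

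The other 6 adaptors did not pass. LAT2, a membrane adaptor of B cells and mast cells also called NTAL, read 6.81, 6.87 and 7.13 in combination tumors, against 7.79, 7.28 and 7.28 in control tumors. These groups did not overlap, with a change of -0.51 ± 0.18 and a limma adjusted p of 0.153. The 4 probe sets of LAT2 did not give 1 answer: on the dimmer one with a mean of 6.02, the changes were 0.76 in acadesine, 0.84 in rituximab and 0.05 in combination tumors, and none passed. BLNK, the adaptor that brings BTK and phospholipase C gamma 2 to SYK, changed by -0.23 ± 0.08 (limma adjusted p = 0.171), and GRB2, which couples receptors to SOS1, by -0.18 ± 0.09. DAPP1, which binds the lipid products of PI3K, changed by -0.23 ± 0.20, PAG1, the membrane anchor of CSK, by -0.12 ± 0.17, and SH3BP2, an SH3-binding adaptor, by 0.07 ± 0.20.

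**Figure D2:**
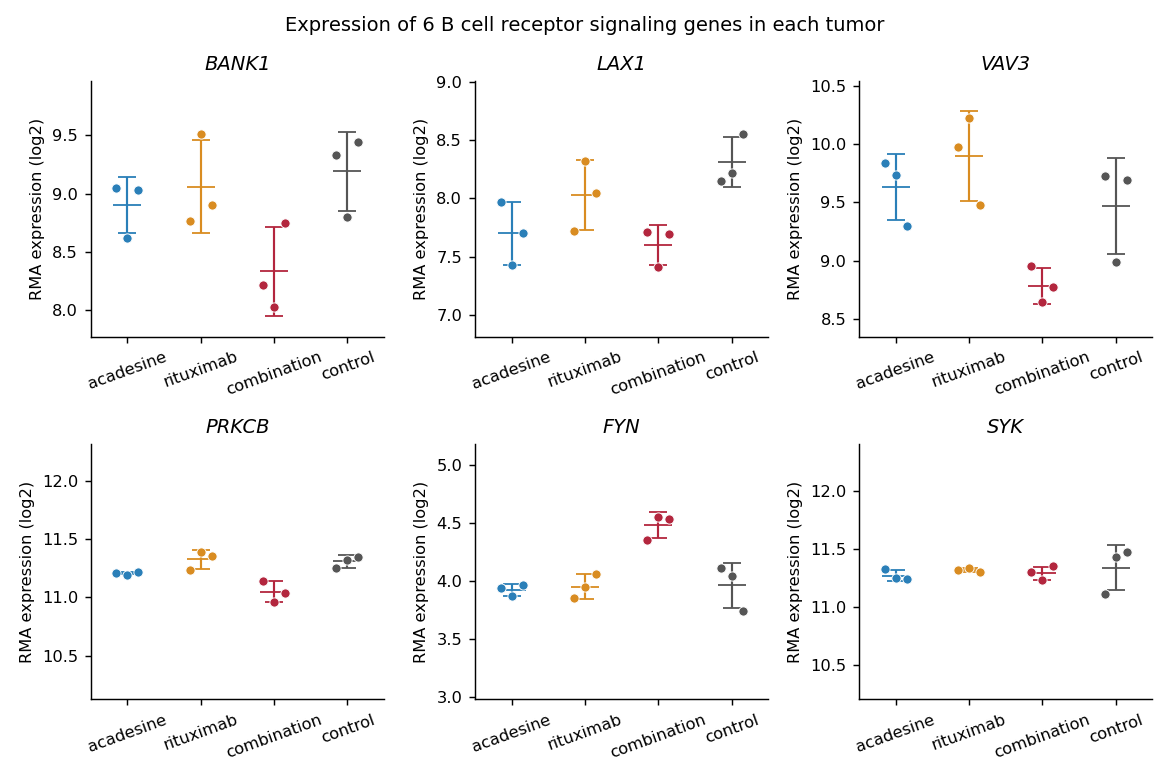
RMA expression (log2) of 6 genes in each tumor, with 1 point a tumor and bars for the mean and SD of 3 tumors, in acadesine, rituximab, combination and control tumors. Combination tumors lie below control tumors for BANK1, LAX1, VAV3 and PRKCB and above them for FYN, while SYK overlaps in all 4 groups. Every panel's axis has the same length.

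Among the exchange factors only VAV3 passed for the combination against each drug alone. VAV3 activates small GTPases downstream of SYK. It read 8.95, 8.64 and 8.77 in combination tumors, 9.84, 9.74 and 9.30 in acadesine tumors and 9.98, 10.23 and 9.48 in rituximab tumors. The control tumors read 9.73, 8.99 and 9.69, so the combination tumors were the lowest 3 of the 12, with control tumor 2 next. Against rituximab the log2 fold change was -1.12 ± 0.19 (limma adjusted p = 0.00184), and it passed with any 1 of the 12 tumors left out. Against acadesine it was -0.84 ± 0.19 (limma adjusted p = 0.0177), a call lost without acadesine tumor 1 (0.109), acadesine tumor 2 (0.0691) or combination tumor 2 (0.0982).

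Against control the change of VAV3 was -0.68 ± 0.19 and just missed the threshold (limma adjusted p = 0.0546). It passed without control tumor 2 (limma adjusted p = 0.00432), acadesine tumor 3 (0.0416), rituximab tumor 2 (0.0416) or rituximab tumor 3 (0.0346). Single agents gave VAV3 values of 0.16 ± 0.19 for acadesine and 0.43 ± 0.19 for rituximab against control, neither past the adjusted threshold. The interaction, in which the single-agent changes of acadesine and of rituximab are both subtracted from that of the combination, was -1.28 ± 0.26 for VAV3 (limma adjusted p = 0.0369), the only one of the 39 to pass, against 0.28% of all genes. It lost its call in 9 of 12 fits that left out 1 tumor, with adjusted p values of 0.0725 without control tumor 2, 0.0515 without control tumor 3, 0.121 and 0.105 without acadesine tumors 1 and 2, 0.075 and 0.131 without rituximab tumors 1 and 2, and 0.0543, 0.137 and 0.0741 without combination tumors 1, 2 and 3. Without the 4 tumors with muscle transcripts VAV3 changed by -0.79 against rituximab (limma adjusted p = 0.575) and -0.63 against acadesine (0.583), with an interaction of -0.89 (0.859). All 6 probe sets of VAV3 were below 0 for the combination against control, between -0.95 and -0.16, and 1 of them passed on its own. None of the 6 passed for the interaction when every probe set was tested. The limma adjusted p there was 0.0523 for the one used, and 0.133 and 0.0663 for the next brightest.

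The other 5 exchange factors passed in no comparison with all 12 tumors in the fit. VAV2, a close relative, read 8.19, 8.24 and 8.02 in combination tumors and 8.36, 8.22 and 8.67 in control tumors, a change of -0.27 ± 0.13 (limma adjusted p = 0.369). VAV1, the blood cell member of the family, changed by -0.02 ± 0.16. RASGRP3, which activates Ras in response to diacylglycerol, changed by -0.41 ± 0.20 (limma adjusted p = 0.357), and passed without control tumor 2, the lowest control tumor at 6.56, with an adjusted p of 0.0499. Its relative RASGRP1 changed by -0.05 ± 0.14, and SOS1, the exchange factor brought by GRB2, by 0.12 ± 0.09. In VAV2, as in VAV3, every combination tumor lay below every acadesine and rituximab tumor. In RASGRP1 every combination tumor lay above them.

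Of the proximal kinases only FYN passed. FYN, a Src family kinase, read 4.35, 4.55 and 4.53 in combination tumors, 3.94, 3.87 and 3.96 in acadesine tumors and 3.85, 3.95 and 4.06 in rituximab tumors. The control tumors read 4.11, 4.04 and 3.74, so all 3 combination tumors were above the other 9. The change was 0.52 ± 0.12 against control (limma adjusted p = 0.028), 0.56 ± 0.12 against acadesine (0.0194) and 0.53 ± 0.12 against rituximab (0.0248). These levels lie near the bottom of the array's range, and FYN had a single probe set with a mean of 4.08, so the difference is one between dim signals. Against control the call was lost without control tumor 3 (limma adjusted p = 0.181), combination tumor 2 (0.128) or combination tumor 3 (0.0825). Against acadesine, leaving out combination tumor 2 (0.0961), combination tumor 3 (0.0543), acadesine tumor 1 (0.0712) or acadesine tumor 2 (0.0728) ended it. Against rituximab, leaving out combination tumor 2 (0.113), combination tumor 3 (0.0754), rituximab tumor 1 (0.0683) or rituximab tumor 2 (0.117) did so. Without the 4 tumors with muscle transcripts FYN changed by 0.39 against control (limma adjusted p = 0.593), 0.40 against acadesine (0.637) and 0.40 against rituximab (0.802).

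SYK, BTK and LYN, the kinases that start the signal, did not pass. SYK read 11.30, 11.23 and 11.35 in combination tumors, against 11.11, 11.43 and 11.47 in control tumors, a change of -0.04 ± 0.08 with a 95% interval from -0.21 to 0.13. BTK, the kinase that activates phospholipase C gamma 2, read 10.71, 10.77 and 10.72 in combination tumors, against 11.03, 10.78 and 10.82 in control tumors, a change of -0.14 ± 0.08 (limma adjusted p = 0.49). LYN, which phosphorylates CD79A and CD79B, changed by -0.16 ± 0.08 (limma adjusted p = 0.424). BLK, a B cell Src family kinase, gave 0.29 ± 0.13 (limma adjusted p = 0.331), and CSK, which switches Src family kinases off, gave 0.06 ± 0.11.

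None of the receptor genes passed. CD79A read 9.15, 9.15 and 9.38 in combination tumors, against 9.56, 9.38 and 9.74 in control tumors, a change of -0.34 ± 0.12 (limma adjusted p = 0.153), and all 3 of its probe sets were below 0. Its partner CD79B read 11.83, 11.76 and 11.96 in combination tumors, against 11.78, 11.67 and 11.81 in control tumors, a change of 0.10 ± 0.08 with a 95% interval from -0.06 to 0.26. CD81, a tetraspanin of the cell surface, read 10.74, 10.76 and 10.98 in combination tumors, against 10.33, 10.66 and 10.59 in control tumors. The groups of CD81 did not overlap, with a change of 0.30 ± 0.09 (limma adjusted p = 0.103), which passed without control tumor 2 (0.049).

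In the protein kinase C and NF-κB branch all 4 genes had fitted changes below 0 and none passed against control. PRKCB, the protein kinase C isoform that passes the receptor's signal to NF-κB, read 11.14, 10.96 and 11.04 in combination tumors, against 11.25, 11.32 and 11.35 in control tumors. The groups did not overlap, with a change of -0.26 ± 0.07 (limma adjusted p = 0.0554), which passed without rituximab tumor 1 (0.042). Against the rituximab tumors, at 11.24, 11.39 and 11.36, it was -0.28 ± 0.07 (limma adjusted p = 0.0346), and leaving out combination tumor 2 (0.191), combination tumor 3 (0.0833), rituximab tumor 2 (0.191) or rituximab tumor 3 (0.128) ended this call. Without the 4 tumors with muscle transcripts PRKCB changed by -0.16 against rituximab (limma adjusted p = 0.897). The second probe set of PRKCB, with a mean of 10.48, passed against control when every probe set was tested, at -0.37 ± 0.09 (limma adjusted p = 0.0296). Against rituximab neither bright probe set of PRKCB passed in that test (limma adjusted p = 0.0505 and 0.136), and the mean of all its probe sets gave 0.372. BCL10, which assembles the NF-κB signaling complex, changed by -0.27 ± 0.13 against control (limma adjusted p = 0.358), the protease MALT1 by -0.17 ± 0.12 and PRKCD, a protein kinase C isoform that restrains B cell responses, by -0.10 ± 0.17.

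PTPRC, the phosphatase CD45 that keeps Src family kinases ready, read 11.26, 11.14 and 11.15 in combination tumors, against 11.56, 11.42 and 11.75 in control tumors. All 3 combination tumors were lower, with a change of -0.39 ± 0.12 (limma adjusted p = 0.0966). That of PTPRC passed without rituximab tumor 2 (limma adjusted p = 0.0204), whose value of 11.84 was the highest of the 12. Of the 6 probe sets of PTPRC, the 5 bright ones gave between -0.40 and -0.30, 1 of them past the threshold (limma adjusted p = 0.0296), and the dim one, with a mean of 3.86, gave 0.21. INPP5D, the lipid phosphatase SHIP1, changed by -0.23 ± 0.08 (limma adjusted p = 0.172), also with no overlap between combination and control tumors. PTPN6, the inhibitory phosphatase SHP-1, gave -0.05 ± 0.15, and the PI3K genes PIK3CD, PIK3R1 and PIK3CG gave 0.06 ± 0.09, 0.00 ± 0.11 and 0.15 ± 0.17.

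**Figure D3:**
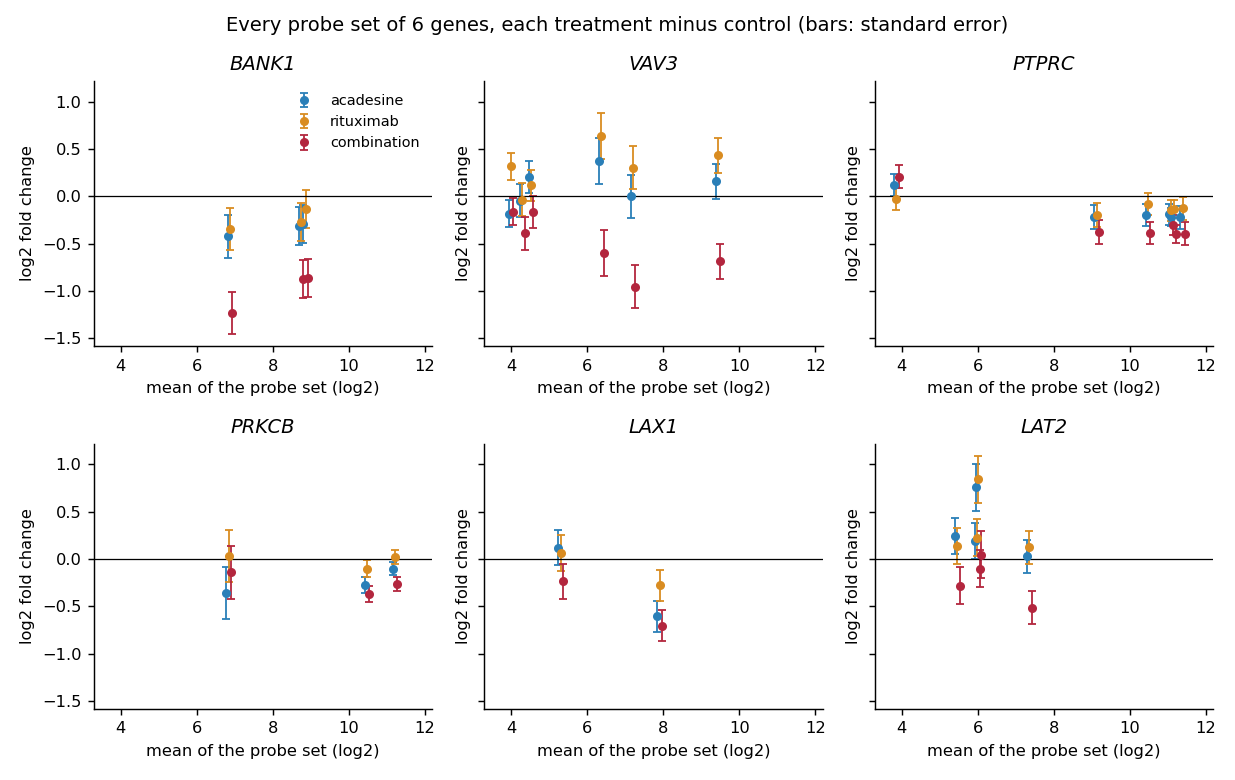
Log2 fold change against control, with its SE, of every probe set of 6 genes, plotted against the probe set's mean over the 12 arrays, for acadesine, rituximab and combination tumors. BANK1 and the bright probe sets of PTPRC gave like values for the combination, while those of LAX1 and LAT2 differed, with LAT2 between -0.51 and 0.05.

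The calcium genes were mixed. PLCG2, the phospholipase itself, read 10.42, 10.38 and 10.47 in combination tumors, against 10.29, 10.43 and 10.61 in control tumors. Its change of -0.02 ± 0.08 had a 95% interval inside 0.2 on either side of 0, the only one of the 39 so narrow around 0 for the combination. Among the 3 receptors that release stored calcium, ITPR1 changed by -0.35 ± 0.14 (limma adjusted p = 0.242), ITPR2 by 0.01 ± 0.10 and ITPR3 by 0.45 ± 0.20 (limma adjusted p = 0.291). ITPR1 read 7.45, 7.42 and 7.61 in combination tumors, against 7.69, 7.97 and 7.87 in control tumors. ITPR3 read 6.20, 6.28 and 6.20 in combination tumors, against 5.46, 5.99 and 5.89 in control tumors. In both genes the combination and control tumors did not overlap, on opposite sides. STIM1, the calcium sensor of the endoplasmic reticulum, changed by -0.21 ± 0.15 and ORAI1, the membrane channel it opens, by -0.04 ± 0.15.

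With acadesine alone 0 of the 39 genes passed, against 0% of all genes, and 3 had an unadjusted p under 0.05, or 7.69%, against 7.8% of all genes. These 3 were LAX1, ITPR2 and RASGRP1. ITPR2 read 9.02, 8.87 and 8.93 in acadesine tumors, against 9.12, 9.25 and 9.44 in control tumors, a change of -0.33 ± 0.10 (limma adjusted p = 0.564). RASGRP1 read 8.11, 7.95 and 8.26 in acadesine tumors, against 8.68, 8.30 and 8.32 in control tumors, a change of -0.33 ± 0.14 (limma adjusted p = 0.614). Both lay below every control tumor, as did LAX1, SOS1, INPP5D and PRKCB. That made 6 of the 39, or 15.4%, wholly below control, against 1086 of 18239 genes. Wholly above control were 0 of the 39, against 1260 of all genes. For 10 genes, SYK, LYN, FYN, BTK, BLNK, GRB2, PLCG2, PIK3CD, INPP5D and PRKCB, the 95% interval of the change lay within 0.3 of 0.

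With rituximab alone 0 of the 39 genes passed, against 0% of all genes, and 3 had an unadjusted p under 0.05, or 7.69%, against 4.21% of all genes. VAV3 was the higher one, with the value given above and tumors that overlapped. CSK read 9.87, 9.56 and 9.57 in rituximab tumors, against 9.77, 9.79 and 10.12 in control tumors, a change of -0.22 ± 0.11 that did not pass. RASGRP1 read 8.21, 8.29 and 7.75 in rituximab tumors, a change of -0.35 ± 0.14, with every tumor below the control tumors that were also used for acadesine. INPP5D and MALT1 also lay below every control tumor. That made 3 of the 39, or 7.69%, wholly below control, against 831 of 18239 genes, and 0 wholly above, against 799. INPP5D thus lay below control in each of the treated groups, but the same control tumors served each time and it passed in none. For 14 genes the 95% interval lay within 0.3 of 0, CD79B, SYK, BTK and PLCG2 among them.

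**Figure D4:**
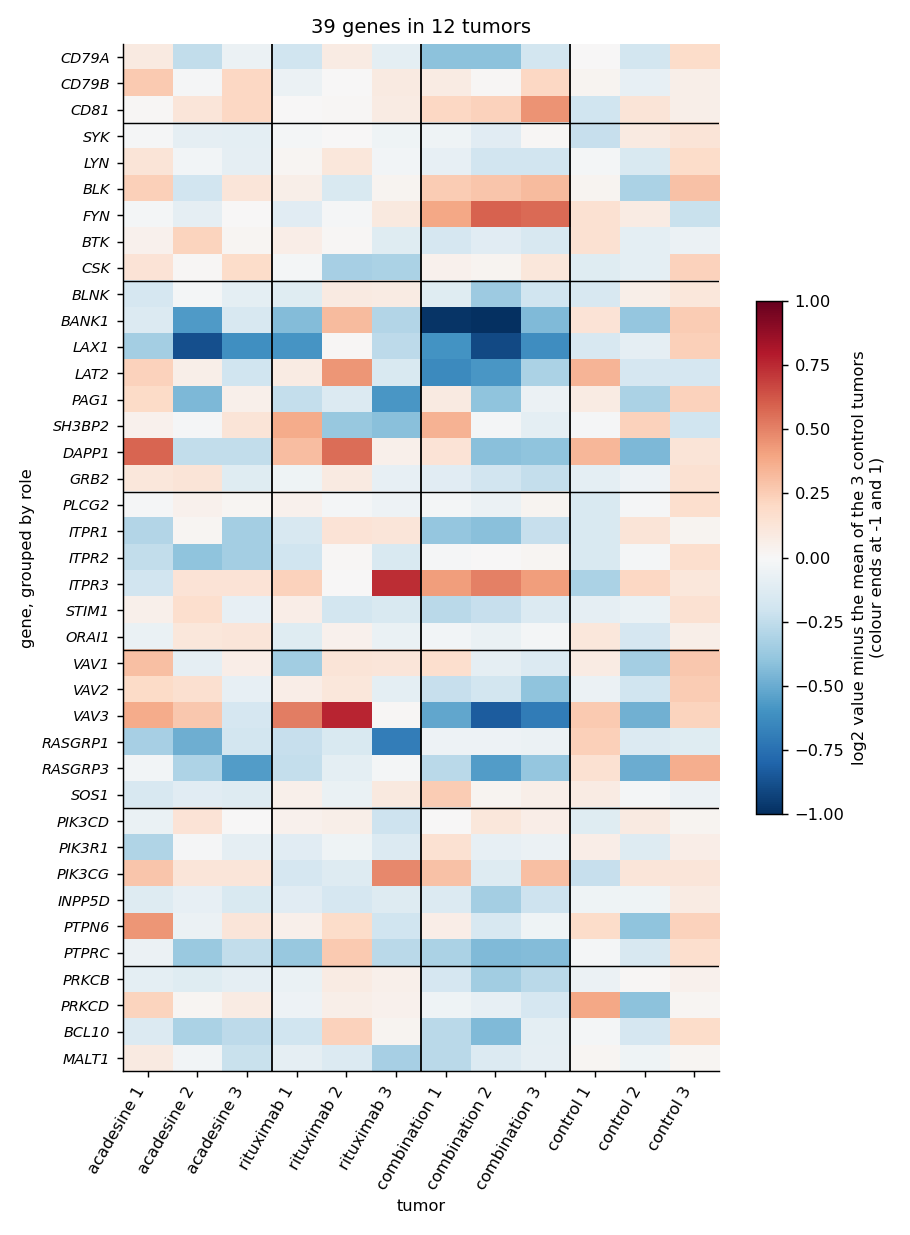
Log2 value of each of the 39 genes in each of the 12 tumors, minus the mean of its 3 control tumors, with genes grouped by role and tumors ordered as acadesine, rituximab, combination and control. The deepest blue cells are BANK1 in combination tumors 1 and 2, at 8.21 and 8.02 against a control mean of 9.19, and the darkest red ones include VAV3 in rituximab tumor 2 at 10.23.

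Compared with the single agents, the combination called 2 of the 39 genes against acadesine, or 5.13%, FYN and VAV3, where 2.45% of all genes passed. Against rituximab it called 3, or 7.69%, FYN, VAV3 and PRKCB, where 2.82% of all genes passed. Among the 9481 genes with a mean above 5, 277 passed higher and 280 lower against acadesine, and 295 and 308 against rituximab. Of the 38 members among them, 1 passed against acadesine, a smaller share than among those 9481 genes. The 4 that passed against rituximab were a larger share. BANK1 against rituximab gave -0.73 ± 0.20 and a limma adjusted p of 0.0523, and against acadesine -0.57 ± 0.20 (0.148). LAX1 against acadesine gave -0.10 ± 0.17 (limma adjusted p = 0.855).

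Of 84 further genes of the pathway, 63 were measured and 4 passed for the combination against control, 2 higher and 2 lower, where 2.47% of all genes passed in either direction, with a median change of -0.02 and 32 of the 63 below 0. CD5, a surface receptor that tempers B cell receptor signaling and marks mantle cell lymphoma, read 6.04, 5.21 and 5.96 in combination tumors, against 7.02, 6.81 and 7.23 in control tumors. Every combination tumor was below every control tumor, with a change of -1.29 ± 0.22 (limma adjusted p = 0.00322). RAC2, a GTPase that the VAV proteins activate in blood cells, fell by 0.45 on the log2 scale (SE 0.12, limma adjusted p = 0.0394). GAB1, a docking adaptor for PI3K, was 0.70 ± 0.15 higher (limma adjusted p = 0.015), and YES1, a Src family kinase of dim signal, 0.78 ± 0.19 higher (0.0324). Without the 4 tumors with muscle transcripts 0 of the 63 passed, with changes of -0.98 for CD5 (limma adjusted p = 0.117), -0.44 for RAC2 (0.438), 0.89 for GAB1 (0.0629) and 0.86 for YES1 (0.111), and 0 passed with a muscle covariate. The calls of RAC2, GAB1 and YES1 also ended when combination tumor 1, combination tumor 2, control tumor 1 or control tumor 3 was left out, with adjusted p values between 0.0754 and 0.216, and that of RAC2 without combination tumor 3 (0.0665). CD2AP, an adaptor of the actin cytoskeleton, changed by -0.30 ± 0.13 in acadesine tumors (limma adjusted p = 0.613). With acadesine or rituximab alone 0 of the 63 passed in limma, where 0% of all genes passed. At an unadjusted p under 0.05 stood 10 of the 63 for acadesine, against 7.8% of all genes. For rituximab 3 of the 63 did, against 4.21% of all genes. With the combination set against acadesine, 4 of the 63 passed higher and 5 lower, where 2.45% of all genes passed. Set against rituximab, 2 passed higher and 1 lower, where 2.82% of all genes passed.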

How the data were processed

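RNA of 12 tumors was hybridised to 1-colour arrays, 1 array a tumor. The log2 values were deposited by the authors as RMA expression, which corrects the background, gives all arrays the same distribution and combines the probes of each set, so differences are relative to the whole array. Of 49293 probe sets other than controls, 45253 named 1 gene in the platform annotation, and each of 18239 genes was read from its probe set with the highest mean. A linear model with 4 groups was fitted to all genes in R 4.3.3 (limma 3.58.1), letting the variance depend on intensity. Benjamini-Hochberg adjustment covered all genes in each of 6 comparisons, and an adjusted p under 0.05 counted as passing. The median SE was 0.135, and the number of tumors limits the precision. The labels call the tumors biological replicates.

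Rank Products, the study's method, was run in Python 3.11.15 with numpy 2.4.6 as an alternative, with 100 permutations, a false discovery rate of 0.2 and a fold change of 1.4. Other alternatives averaged probe sets, left out genes with a mean of 5 or less, changed the variance model or the normalization, weighted arrays, added a replicate block or a muscle covariate, or left out tumors. Same-numbered tumors correlated between -0.12 and 0.19 in their deviations from the group means, with 7 of 18 pairs above 0.1. Differently numbered tumors correlated between -0.24 and 0.15, with 5 of 36 pairs above 0.1. The main fit did not take the numbers as pairs, and whether a number stands for a shared factor was not tested. The 39 genes, the 84 further pathway genes and the marker lists were chosen with earlier results of these data known. All 39 genes are named, as are further pathway genes that passed and CD2AP. Of the 84 further genes, 21 were not analysed here.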

Additional observations from a re-analysis of the deposited data

Results flagged for a closer look

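The effect of the combination on VAV3 differed from the sum of the effects of acadesine and rituximab, with an interaction of -1.28 ± 0.26 on the log2 scale (limma adjusted p = 0.0369). When every probe set was tested, no probe set of VAV3 passed for the interaction, and the one used gave a limma adjusted p of 0.0523. The combination tumors averaged 8.78 ± 0.15, the acadesine tumors 9.63 ± 0.28, the rituximab tumors 9.90 ± 0.38 and the control tumors 9.47 ± 0.42 (SD, n = 3 each). The adjusted p of the VAV3 interaction ranged from 0.00936 to 0.137 with each tumor left out in turn and from 0.0277 to 0.859 over the other alternatives.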

How the results depend on the processing

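For the combination against control, 3 of the 39 genes passed, and 1 did so without an intensity trend, 5 with arrays centred on the median, 0 with the muscle level as a covariate and 0 without the 4 tumors with muscle transcripts; leaving out each tumor in turn gave 0 to 6. Rank Products called 3, all lower, BANK1, LAX1 and VAV3, and 0 for either single agent. Over all 18239 genes it called 272 higher and 298 lower for the combination, 6 and 6 for acadesine, and 10 and 29 for rituximab. Against acadesine 2 passed, and 1 did so with the mean of all probe sets, with only genes of a mean above 5, without a trend or with a robust variance, 0 with the muscle covariate or without the 4 tumors, and 0 to 2 with each tumor left out. Against rituximab 3 passed, 5 with median centring or array weights, 1 with the muscle covariate, 0 without the 4 tumors, and 1 to 5 with each tumor left out. The interaction of VAV3 passed, and 0 genes did so with the mean of all probe sets, without a trend, with a robust variance, with array weights, with the muscle covariate or without the 4 tumors, and 0 to 1 with each tumor left out. Of the 63 further genes 4 passed for the combination, 1 with the mean of all probe sets or without a trend, 0 with the muscle covariate or without the 4 tumors, and 1 to 5 with each tumor left out. With the replicate number as a block, 4 of the 39 passed for the combination against control, VAV3 being added with an adjusted p of 0.0441. For acadesine and rituximab alone 0 of the 39 passed under every alternative run. Over all genes the combination against control called 208 higher and 242 lower. That became 128 and 133 without a trend, and 99 and 42 with the muscle covariate. The same covariate took the calls against acadesine from 239 and 207 to 172 and 81. Against rituximab they went from 276 and 239 to 161 and 72, and for the interaction from 37 and 14 to 37 and 10. Calls over all genes also fell without the 4 tumors, which leaves 1 combination tumor. Outside the leave-outs the adjusted p against control ranged from 0.0115 to 0.154 for BANK1, 0.0159 to 0.367 for LAX1 and 0.0229 to 0.593 for FYN, and against rituximab from 0.00148 to 0.575 for VAV3 and 0.0132 to 0.897 for PRKCB. 0 called values changed sign under the alternatives run, of which Rank Products covered the comparisons against control alone. The median over the 39 genes did change sign for acadesine, from 0.02 in the main fit. It was -0.04 with the mean of all probe sets, where 26 of the 39 changes were below 0, against 18. It was -0.08 without control tumor 2, -0.03 without control tumor 1 and -0.05 without acadesine tumor 1. In some other fits it rounded to 0. For rituximab the median was 0.04 without control tumor 3, against -0.01 in the main fit. Leaving out the 4 tumors leaves 1 combination tumor, which is assumed to vary like the others, and the cause of the other changes was not tested. FYN, with a mean below 5, drops out under the filter on dim genes.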
